A study of Rattus norvegicus with 8 samples.

Results

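The genes described here belong to plasminogen activation and to blood coagulation. They are 9 genes, *Plau*, *Plaur*, *Plg*, *Serpine2*, *Serpinb2*, *F3*, *F10*, *F13a1* and *Thbd*, out of 14217 genes with a probe set of their own on the arrays. They were taken as every probe set whose annotation names exactly 1 of these symbols, which gave 14 of 31042 probe sets. In the study, mononuclear cells of peripheral blood (PBMCs, mostly lymphocytes with monocytes) of 2 healthy male Brown Norway rats, BN1 and BN2, about 180 days old, were used as a reporter of what plasma contains. Cells of each rat, 500000 per culture, were kept for 6 h with 20% plasma, and each culture was read on its own Affymetrix rat expression array. The 5% IH plasma was pooled from 5 adult male Sprague-Dawley rats that had intermittent hypoxia (IH) at 5% oxygen for 1 h a day on postnatal days 2 to 6. The 10% IH plasma was pooled from 3 such rats that had 10% oxygen on the same days. Normoxic control plasma came from 8 Sprague-Dawley rats kept at 21% oxygen, and all of these rats were males, bled as adults (PD114, the postnatal day in the study) after an overnight fast. Autologous Brown Norway plasma was the background. The Sprague-Dawley plasmas differ from it at least in strain, in age, in the site of housing and in being foreign to the cells. The study states the fast for the Sprague-Dawley rats only. Each pool was made a single time, and the arrays of a group differ in the reporter rat, so the spread within a group is that between 2 cell donors and not between plasma donors. The source labels of the 2 autologous arrays both name BN2, and another label gives BN1 plasma for the BN2 array, so which rat's plasma those cultures held is not certain.

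Plasmin, the protease that dissolves fibrin, is released from plasminogen (*Plg*) by urokinase (*Plau*), which acts on cell surfaces while bound to its receptor (*Plaur*). Inhibitors of the serpin family restrain the system, among them plasminogen activator inhibitor 2 (*Serpinb2*) and protease nexin 1 (*Serpine2*), which also blocks thrombin. Clotting starts when tissue factor (*F3*) meets circulating factors and leads through factor X (*F10*) to thrombin, fibrin is then cross-linked by factor XIII (*F13a1* encodes its A chain), and thrombomodulin (*Thbd*) turns thrombin toward the anticoagulant protein C pathway. Monocytes are known for expressing the urokinase receptor, thrombomodulin and factor XIII A and, when activated, tissue factor. Platelets also carry factor XIII A, while plasminogen and factor X in plasma come mainly from the liver.

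The promoters of 3 genes are shown because *Plaur* and *F13a1* moved in opposite directions against autologous plasma and *Serpine2* fell most with 10% IH plasma. The RefSeq table used (build GRCr8) held promoters of 7 of the 9 members, all but *F3* and *Thbd*. Each run is the 250 bases before the annotated start on the strand of the gene, 5′ to 3′. *Plaur* lies downstream of chr1:89181113-89181362 (plus strand), *F13a1* of chr17:28020947-28021196 (plus strand) and *Serpine2* of chr9:88637203-88637452 (minus strand). Capitals mark matches, on either strand, to the AP-1 letters TGANTCA, the NF-kB letters GGGNNTTCC, the Sp1 letters GGGCGG, the C/EBP letters TTNNGNAA, the ETS letters GGAANT and the TATA box letters TATAAA. The NF-kB and ETS letters can overlap each other.
Plaur: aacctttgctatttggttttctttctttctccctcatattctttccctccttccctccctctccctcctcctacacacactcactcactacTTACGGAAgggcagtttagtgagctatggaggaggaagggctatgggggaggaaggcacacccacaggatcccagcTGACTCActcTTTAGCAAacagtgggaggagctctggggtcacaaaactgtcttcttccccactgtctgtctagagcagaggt
F13a1: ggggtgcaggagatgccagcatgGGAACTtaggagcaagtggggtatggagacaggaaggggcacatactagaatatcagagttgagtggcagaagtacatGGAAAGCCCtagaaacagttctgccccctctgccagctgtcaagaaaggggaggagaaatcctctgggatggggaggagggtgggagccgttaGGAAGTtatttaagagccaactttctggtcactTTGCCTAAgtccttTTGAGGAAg
Serpine2: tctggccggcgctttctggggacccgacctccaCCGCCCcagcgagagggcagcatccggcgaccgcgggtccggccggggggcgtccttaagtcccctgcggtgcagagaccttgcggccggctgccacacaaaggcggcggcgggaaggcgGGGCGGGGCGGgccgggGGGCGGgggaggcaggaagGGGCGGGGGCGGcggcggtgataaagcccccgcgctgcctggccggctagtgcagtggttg

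The *Plaur* window held a match to the AP-1 letters (TGACTCA) at -83 to -77, counted from the start, and C/EBP matches on either side of it, TTACGGAA and TTTAGCAA. AP-1 letters occurred in 6.34% of 33469 promoters of this length and C/EBP letters in 37.2%. In *Serpine2* the capitals are Sp1 matches, 6 in all with 2 of them sharing a base, and these letters occurred in 30.5% of promoters. The *F13a1* window held an NF-kB match (GGAAAGCCC; these letters are in 5.09% of promoters), 2 ETS matches (in 47.3%) and 2 C/EBP matches. Such matches describe letters and are not evidence that a factor binds there.

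Values are log2 expression after Robust Multichip Analysis (RMA), and array medians lay between 5.53 and 5.56. A gene is represented by its brightest probe set. Where a group's arrays are said to lie under or above the others, the share of all genes doing so was not counted. The study's criterion for a regulated probe set was a Rank Product p under 0.05, a test that asks whether a probe set ranks near the top or bottom in all ratios between arrays, together with a difference in group means beyond 0.263 on the log2 scale (1.2-fold). limma, which fits all 4 groups and adjusts p over all probe sets by Benjamini-Hochberg, was run beside it. For 4 members (*Plau*, *Plaur*, *F13a1* and *Thbd*) the brightest probe set lay above the 40th percentile of all probe sets by mean level. The other 5 lay between the 2.19th and the 15.8th percentile, a place that also depends on how well probes hybridize, so differences there are less certain. T cell markers were bright and alike in all groups (mean log2 level of 7 genes 9.62 to 9.75 over the 8 arrays), and the summed linear level of 8 monocyte markers was 3529 to 4149 with 5% IH, 3566 to 3701 with 10% IH and 3022 to 3619 with control plasma, against 410 to 661 with autologous plasma. *Cd14*, a lipopolysaccharide co-receptor found on monocytes, had the largest difference from autologous plasma of these 8 markers. It was at 10.21 and 10.40 with 5% IH, 9.93 and 9.94 with 10% IH and 9.78 and 10.03 with control plasma, and at 4.48 and 4.78 with autologous plasma. In a mixed culture, fewer cells of a type and less RNA per cell cannot be told apart.

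**Figure D1:**
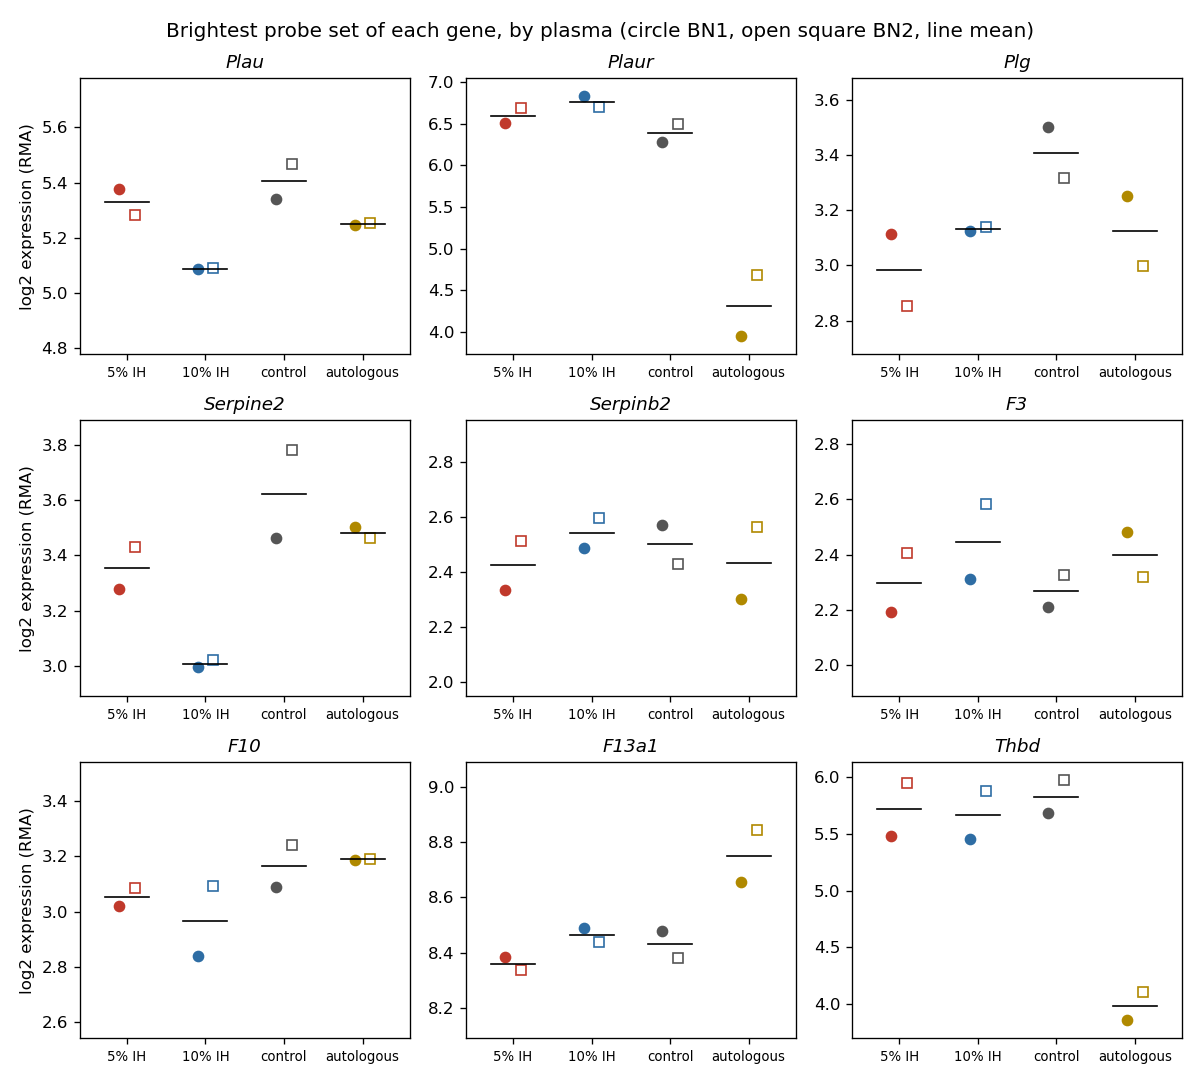
Log2 expression of the brightest probe set of each gene in every array, by plasma (filled circle BN1, open square BN2, line at the group mean; each panel has its own scale). *Plaur* and *Thbd* have their autologous arrays far under the others, at 3.95 and 4.68 and at 3.86 and 4.11, and *Serpine2* and *Plau* have both 10% IH arrays under all others.

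The clearest differences were in the receptors. *Plaur* read 6.50 and 6.68 (BN1 and BN2) with 5% IH plasma, 6.83 and 6.69 with 10% IH plasma and 6.28 and 6.50 with control plasma, against 3.95 and 4.68 with autologous plasma. Every Sprague-Dawley array lay above both autologous arrays, and the donors were farther apart in autologous plasma, by 0.73, than in any other. Against autologous plasma *Plaur* was higher by 2.28 with 5% IH (4.85-fold, standard error 0.206, 95% interval 1.81 to 2.75), by 2.45 with 10% IH (5.45-fold, interval 1.98 to 2.91) and by 2.08 with control plasma (4.22-fold, interval 1.61 to 2.54). In limma its adjusted p was 4e-04, 0.000334 and 0.000935 in these comparisons. *Thbd* read 5.49 and 5.95 with 5% IH plasma, 5.46 and 5.88 with 10% IH plasma and 5.69 and 5.97 with control plasma, against 3.86 and 4.11 with autologous plasma. Its groups did not overlap those of autologous plasma either, and BN2 was the higher donor in all 4 plasmas. *Thbd* was higher than with autologous plasma by 1.73 with 5% IH (3.32-fold, standard error 0.192, adjusted p = 0.00144 in limma), by 1.69 with 10% IH (3.22-fold, adjusted p = 0.00222) and by 1.85 with control plasma (3.6-fold, adjusted p = 0.00124). All of these also met the study's criterion, and none was lost when any array was left out. Of the monocyte markers, 5 of 8 (*Cd14*, *Csf1r*, *Lyz2*, *Cd68* and *Itgam*) were higher in limma against autologous plasma with each Sprague-Dawley plasma. Over all 14217 genes, 361 were higher in limma with 5% IH, 254 with 10% IH and 314 with control plasma. In the same order, *Cd36* had 0.27, 0.25 and 0.22, *Cd163* -0.10, -0.21 and 0.01, and *Mrc1* 0.02, -0.13 and 0.11, none of which passed in limma. The part of the monocyte markers in the levels of *Plaur* and *Thbd* was not tested.

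**Figure D2:**
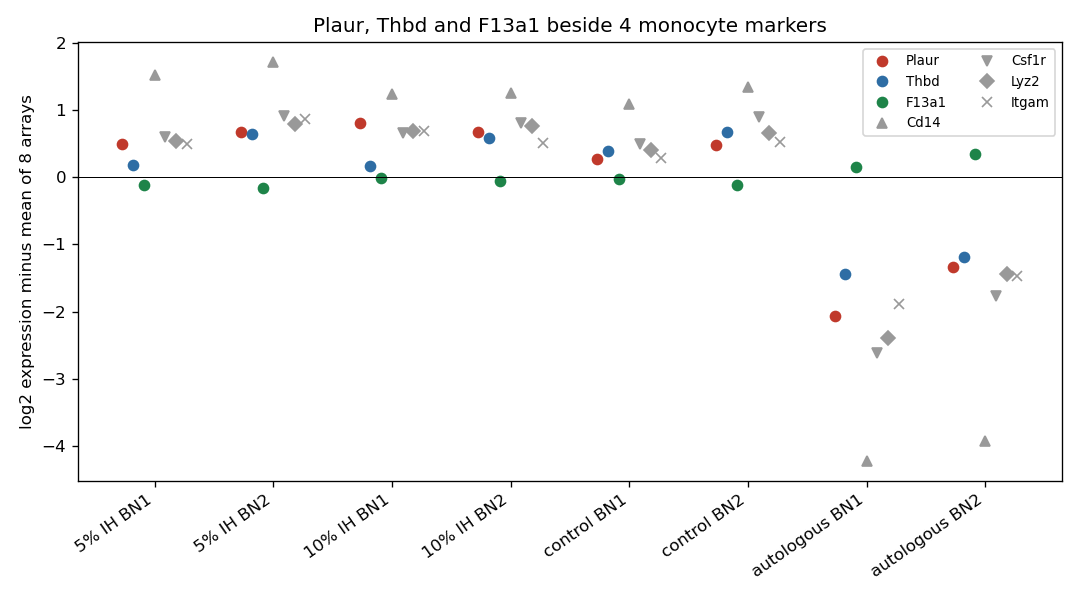
Log2 expression in each of the 8 arrays minus the gene's own mean over them, for *Plaur*, *Thbd* and *F13a1* (coloured) and the monocyte markers *Cd14*, *Csf1r*, *Lyz2* and *Itgam* (grey). *Plaur*, *Thbd* and the markers drawn lie under 0 in both autologous arrays and above 0 in the 6 others, and *F13a1* lies above 0 in the autologous arrays. Of the monocyte markers not drawn, *Cd68* was higher in limma with each Sprague-Dawley plasma, and *Cd36*, *Cd163* and *Mrc1* were not.

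By order of group means, *Plaur* was highest with 10% IH (6.76), then 5% IH (6.59), control (6.39) and autologous plasma (4.31; SD 0.0943, 0.127, 0.152 and 0.518, n = 2 each). Neighbours among the Sprague-Dawley plasmas did not differ past the adjusted threshold. *Plaur* with 10% IH was above control by 0.37 (0.54 in BN1 and 0.20 in BN2) and met the study's criterion, although limma gave a 95% interval of -0.10 to 0.84 and an adjusted p = 0.92, and without the BN1 control array the difference was 0.26, just under the fold threshold. With 5% IH it was above control by 0.20 (interval -0.27 to 0.67), which did not meet the criterion with all arrays in but did without the BN2 control array and without the BN1 array of 5% IH. *Thbd* had the order control (5.83), 5% IH (5.72), 10% IH (5.67) and autologous (3.98), and the differences from control were -0.11 with 5% IH (interval -0.55 to 0.32) and -0.16 with 10% IH (interval -0.60 to 0.28). *Thbd* met the criterion as lower than control in neither comparison with all arrays in, but did so without the BN2 array of 5% IH in the 5% IH comparison and without the BN2 array of 10% IH in the 10% IH comparison.

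The probe sets of a gene did not move alike. The other *Plaur* probe set, 1371286_at, had ratios to autologous plasma of 0.24 with 5% IH, 0.23 with 10% IH and 0.05 with control plasma, none of which met the criterion, beside 2.28, 2.45 and 2.08 for 1387269_s_at. For *Thbd*, 1368901_at was higher by 0.47, 0.35 and 0.45 in the same order and met the criterion each time, while 1368900_at had -0.13, 0.16 and 0.02. The large ratios are thus those of 1 probe set in each gene, the brightest, and the files do not say which transcripts each probe set reads.

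**Figure D3:**
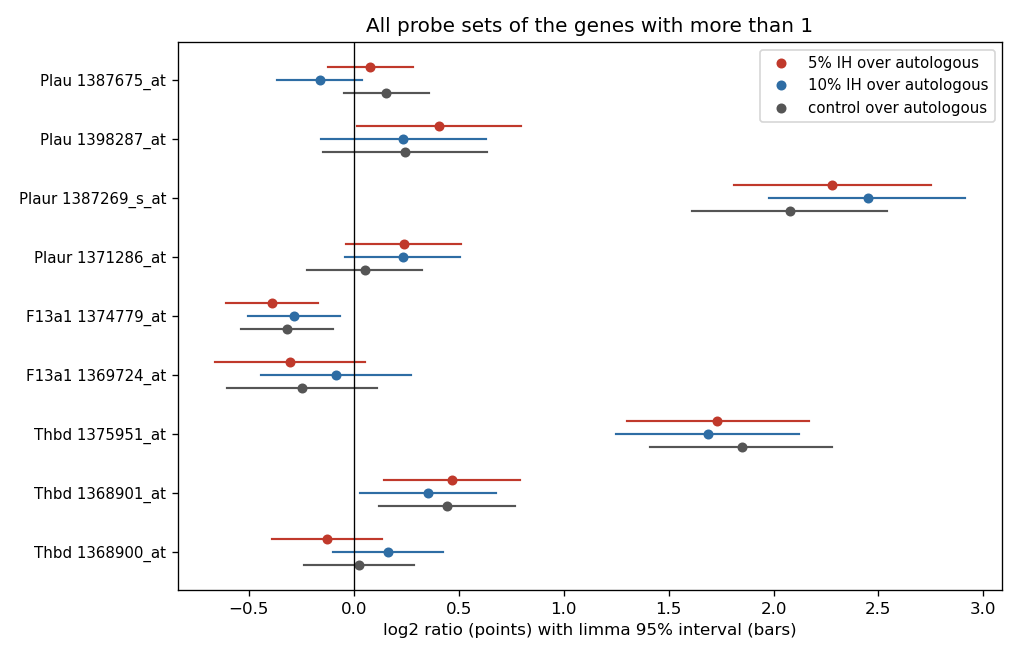
Log2 ratio to autologous plasma (points) with limma's 95% interval (bars) for every probe set of the 4 genes with more than 1, in the cultures with 5% IH, 10% IH and control plasma. *Plaur* 1387269_s_at (2.08 to 2.45) and *Thbd* 1375951_at (1.69 to 1.85) lie far from 0, and the remaining probe sets lie between -0.39 and 0.47.

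*F13a1*, whose product stabilizes fibrin, went the other way. It read 8.38 and 8.34 with 5% IH plasma, 8.49 and 8.44 with 10% IH plasma and 8.48 and 8.38 with control plasma, against 8.66 and 8.84 with autologous plasma. Both autologous arrays were the highest of the 8. *F13a1* was lower than with autologous plasma, at -0.39 with 5% IH (95% interval -0.61 to -0.17), at -0.29 with 10% IH (-0.51 to -0.07) and at -0.32 with control plasma (-0.54 to -0.10), and met the study's criterion in all 3, with limma's adjusted p = 0.109, 0.359 and 0.23. The call was lost without the BN2 autologous array in all 3 comparisons (-0.30, -0.19 and -0.23), without the BN2 array of 10% IH in the 10% IH comparison (-0.26) and without the BN2 control array in the control comparison (-0.27). The 10% IH call was also lost with a 2-sided Rank Product p and by the mean of the probe sets of *F13a1* (-0.19). The other probe set, 1369724_at, was lower with 5% IH (-0.30) and had -0.09 with 10% IH and -0.245 with control plasma, neither of which met the criterion. Its donors lay on opposite sides of 0 with 10% IH (0.29 in BN1 and -0.46 in BN2) and with control plasma (0.02 in BN1 and -0.51 in BN2). Of 8 platelet markers measured, 3 were lower by the criterion with 5% IH, 1 with 10% IH and 1 with control plasma, and none was higher. Over all 14217 genes, 594, 514 and 564 were lower by the criterion in these comparisons. None of the 8 platelet markers was lower in limma. Their summed linear level was 10488 to 10839 with 5% IH, 11273 to 11865 with 10% IH and 10830 to 11409 with control plasma, against 11907 to 12972 with autologous plasma, and its part in the level of *F13a1* was not tested.

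Counting all 9 genes against autologous plasma, 3 met the study's criterion with 5% IH (10.4% of all genes did), 4 with 10% IH (9.01% of all genes) and 4 with control plasma (10.1% of all genes). In limma, *Plaur* and *Thbd* passed in each comparison, that is 2 of 9, where 2.75%, 1.81% and 2.44% of all genes passed with 5% IH, 10% IH and control plasma. The median ratio of the 9 was -0.10, 0.01 and 0.14, and over all genes -0.01 in each. The 3 comparisons share the autologous arrays and so are not independent of each other. Because the 9 genes were chosen with earlier results of these data known, counts beside the shares of all genes are a description only. Besides *Plaur*, *Thbd* and *F13a1*, the calls were *Serpine2* with 10% IH and *Plg* with control plasma, which are described with the IH comparisons.

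**Figure D4:**
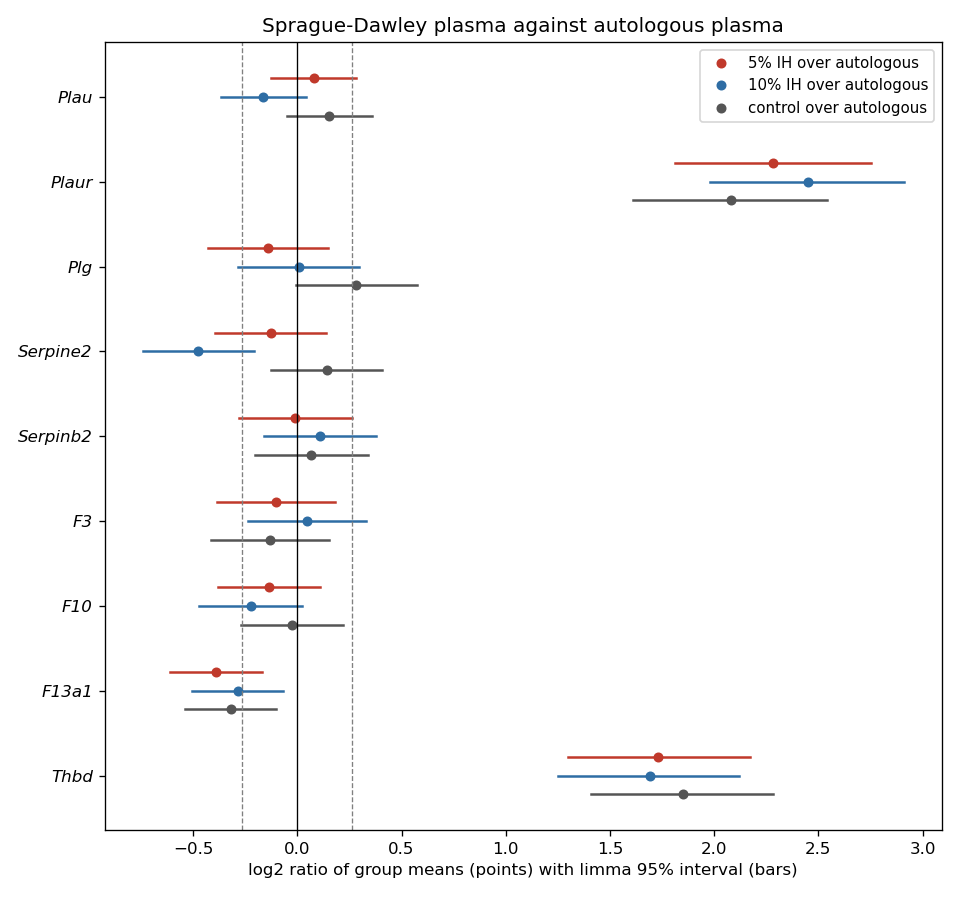
Log2 ratio of each Sprague-Dawley plasma to autologous plasma (points) with limma's 95% interval (bars) for the brightest probe set of each gene; dashed lines mark 0.263 in either direction. *Plaur* and *Thbd* lie at 1.69 or more with every plasma, *F13a1* lies between -0.39 and -0.29, and the intervals of *Serpinb2* and *F3* include 0.

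The comparison of IH with control plasma asks what neonatal exposure left in adult plasma. With 5% IH plasma 2 of the 9 genes met the study's criterion, where 2.49% of all genes did, and with 10% IH plasma 4 did, where 4.3% of all genes did. With 9 genes these shares rest on few calls. The 9 were also chosen with earlier results of these data known. Their counts therefore cannot show that the pathways were called more often than other genes. In limma 0 of the 9 had an adjusted p under 0.05 with either plasma, and 0% of all genes did, while 2 of 9 had an unadjusted p under 0.05 with 5% IH (1.94% of all genes) and 2 with 10% IH (4.12%). Adjusted p was 1 for all 9 with 5% IH and 0.92 to 0.983 with 10% IH. The median ratio of the 9 was -0.08 with 5% IH and -0.16 with 10% IH, and over all genes -0.000905 and -0.00117.

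*Serpine2*, the protease nexin, had the largest fall among the 9 with 10% IH. It read 3.28 and 3.43 with 5% IH plasma, 2.99 and 3.02 with 10% IH plasma and 3.46 and 3.78 with control plasma, and 3.50 and 3.46 with autologous plasma. Both 10% IH arrays were under every other array, and the 5% IH arrays were under both control arrays. With 10% IH it was lower than control, at -0.62 (standard error 0.117, 95% interval -0.88 to -0.35, with -0.47 in BN1 and -0.76 in BN2) and stayed past the criterion with any array left out (-0.78 to -0.46). It was also lower than with autologous plasma, at -0.475 (interval -0.74 to -0.21, adjusted p = 0.149 in limma). With 5% IH it was lower than control, at -0.27 (interval -0.54 to -0.003), at the edge of the fold threshold, and the call was lost without the BN2 control array (-0.11), without the BN1 array of 5% IH (-0.19) and when arrays were centred on their medians (-0.26). Set directly against each other, *Serpine2* was higher with 5% IH than with 10% IH by 0.35 (interval 0.08 to 0.61, adjusted p = 0.981 in limma) and met the criterion, though not without the BN2 array of 5% IH (0.27). It was the only 1 of the 9 to do so, where 4.47% of all genes did, and in limma 0 of 9 and 0% of all genes passed, with 2 of 9 (*Plau* and *Serpine2*) and 4.05% of all genes at an unadjusted p under 0.05. Over all 14 probe sets, 2 met the criterion between 5% IH and 10% IH, *Serpine2* and the dimmest of *Thbd*, where 6.33% of all probe sets did. The single *Serpine2* probe set lies at percentile 15.8 of all probe sets.

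*Plau*, urokinase itself, read 5.38 and 5.28 with 5% IH plasma, 5.09 and 5.09 with 10% IH plasma and 5.34 and 5.47 with control plasma, and 5.25 and 5.25 with autologous plasma. The 10% IH arrays were the lowest of the 8. With 10% IH *Plau* was lower than control, at -0.32 (standard error 0.0893, 95% interval -0.52 to -0.11, with -0.25 in BN1 and -0.38 in BN2) and met the criterion, but not without the BN2 control array (-0.25) or by the mean of its probe sets (-0.16). Against autologous plasma the 10% IH value was -0.16 (interval -0.37 to 0.04). With 5% IH the ratio to control was -0.08 (interval -0.28 to 0.13), and 5% IH lay above 10% IH by 0.24 (interval 0.04 to 0.44), under the fold threshold, and met the criterion only without the BN2 array of 5% IH. The dimmer probe set, 1398287_at, had -0.01 with 10% IH and 0.16 with 5% IH against control, with donors on opposite sides of 0 in each, and 0.24 with 10% IH against autologous plasma, so that its sign differed from that of the brightest probe set in the last 2 of these. Against autologous plasma 1398287_at was also higher by 0.41 with 5% IH (interval 0.01 to 0.80), which met the criterion. With control plasma it had 0.24, which did not, and the brightest probe set met it in neither. By their brightest probe sets, *Plau* and its receptor had opposite signs with 10% IH against control plasma, -0.32 and 0.37. The dimmer *Plaur* probe set, 1371286_at, had 0.18 there, which did not meet the criterion.

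*Plg*, plasminogen, read 3.12 and 2.85 with 5% IH plasma, 3.12 and 3.14 with 10% IH plasma and 3.50 and 3.32 with control plasma, and 3.25 and 3.00 with autologous plasma. Control arrays were the highest of the 8. *Plg* was lower than control, at -0.42 with 5% IH (standard error 0.127, interval -0.71 to -0.14, and -0.56 to -0.29 with any array left out, past the criterion each time). With 10% IH it was lower, at -0.28 (interval -0.57 to 0.01), a call that was lost if control plasma on BN1 (-0.18) or 10% IH plasma on BN2 (-0.29, by its Rank Product p) was left out and with a 2-sided p. The 2 ratios share the control arrays. Between 5% IH and 10% IH, *Plg* met the criterion (lower with 5% IH) only without the BN1 array of 5% IH. Against autologous plasma *Plg* had -0.14 with 5% IH and 0.01 with 10% IH. With control plasma it had 0.28 (interval -0.004 to 0.57), which met the criterion. That call was lost with the BN1 control array (0.19) or the BN2 autologous array (0.16) left out, or with a 2-sided p. Its probe set lies at percentile 12.6, and the hepatocyte list, whose cells make plasminogen in the body, had a summed linear level of 159 to 165 with 5% IH, 157 to 178 with 10% IH and 149 to 154 with control plasma, and 157 to 160 with autologous plasma.

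**Figure D5:**
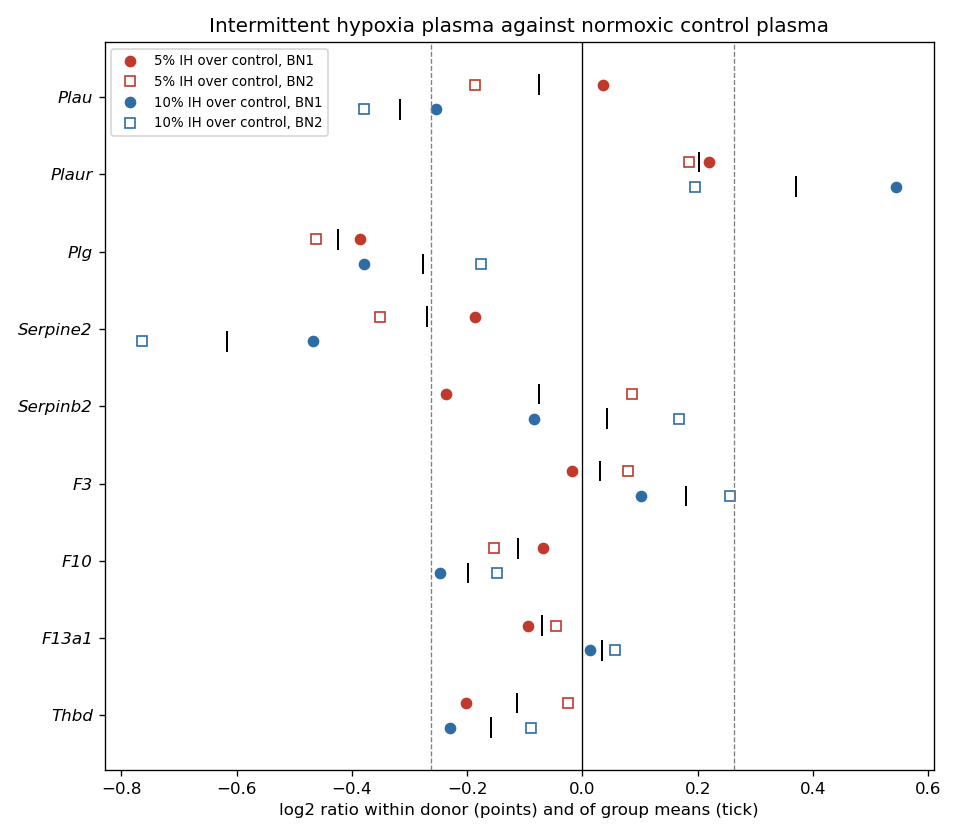
For the brightest probe set of each gene, the log2 ratio of 5% IH (red) and of 10% IH (blue) to control plasma within BN1 (circles) and within BN2 (squares), with a tick at the ratio of group means and dashed lines at 0.263 in either direction. *Serpine2* reaches -0.62 with 10% IH and *Plg* -0.42 with 5% IH, with donors on the same side of 0.

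*Serpinb2*, *F3* and *F10* stayed near the bottom of the scale and met the criterion in no comparison with all arrays in. Without the BN1 array of 10% IH *F3* was called higher than control and lower in 5% IH than in 10% IH, and without the BN2 array of 10% IH *F10* was called lower in 10% IH than in control and than in autologous plasma. *Serpinb2*, an inhibitor that activated monocytes are known to make, ranged over the 8 arrays from 2.30 to 2.60 and had ratios to control of -0.08 with 5% IH (interval -0.34 to 0.19) and 0.04 with 10% IH (-0.23 to 0.31). *F3*, tissue factor, ranged from 2.19 to 2.58, with ratios of 0.03 (-0.25 to 0.31) and 0.18 (-0.10 to 0.46). With 10% IH both donors of *F3* were above control (0.10 in BN1 and 0.26 in BN2). *F10* ranged from 2.84 to 3.24, with ratios of -0.11 (-0.36 to 0.14) and -0.20 (-0.44 to 0.05). Both donors of *F10* were under control with 5% IH (-0.07 in BN1 and -0.15 in BN2) and with 10% IH (-0.25 in BN1 and -0.15 in BN2). Against autologous plasma the ratios of *Serpinb2*, *F3* and *F10* lay between -0.22 and 0.11. Detection calls were not used here, and these levels do not separate a low transcript from background.

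Over the 8 arrays, *Plaur* and *Thbd* had a Pearson's r of 0.954 with each other and of -0.83 and -0.89 with *F13a1*, as a description, since the 2 autologous arrays stand apart from the other 6. *Plau* and *Serpine2*, which were both lowest with 10% IH, had an r of 0.851. Among 8726 genes with a level above the median of all probe sets, those most like *Plaur* over the 8 arrays were *Vcan* (r = 0.997), *Lyz2* (0.996) and *Lta4h* (0.994). *Vcan* averaged 7.72 with 5% IH, 8.10 with 10% IH and 7.61 with control plasma, against 4.37 with autologous plasma. Most like *Thbd* were *Sema4a* (0.991), *Clec12a* (0.990) and *A2ml1* (0.990), and most like *Serpine2* were *Focad* (0.932), *Slc24a4* (0.927) and *Pdzd4* (0.909). *Focad* averaged 7.38 with 10% IH and 7.47 with control plasma. These genes were picked for the highest r among 8726 over only 8 arrays, so their r describes an order and was not tested.

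Other genes of the pathways, 49 in a list of which 41 were measured, gave 2 calls by the criterion with 5% IH against control (2.49% of all genes), 1 with 10% IH (4.3% of all genes) and 1 between 5% IH and 10% IH (4.47% of all genes). With 5% IH, *Fgg*, fibrinogen gamma, was higher (0.46, at percentile 12.2) and *Procr*, the endothelial protein C receptor, was lower (-0.27), and with 10% IH *Klkb1*, plasma prekallikrein, was higher (0.36, at percentile 9.57). The call between 5% IH and 10% IH was also *Klkb1* (-0.36). Each had an adjusted p of 0.92 or more in limma. Against autologous plasma, 5 of the 41 met the criterion with 5% IH (4 higher, where 10.4% of all genes were called in either direction), 2 with 10% IH (both higher, where 9.01% were called) and 7 with control plasma (5 higher, where 10.1% were called). *Lrp1*, the endocytic receptor that clears urokinase bound to its inhibitor, read 6.71 and 7.21 with 5% IH, 6.91 and 7.04 with 10% IH and 6.75 and 6.96 with control plasma, against 5.68 and 5.87 with autologous plasma. It was higher by 1.19, 1.2 and 1.08 (adjusted p = 0.00495, 0.00641 and 0.0106 in limma). *Anxa2*, a cell surface site for plasminogen, was higher by 0.67, 0.71 and 0.70 (adjusted p = 0.0079, 0.00789 and 0.00733). *F5*, coagulation factor V, read 8.72 and 8.72 with 5% IH, 8.98 and 8.97 with 10% IH and 8.85 and 8.72 with control plasma, against 9.20 and 9.17 with autologous plasma. It was lower, at -0.47 with 5% IH (adjusted p = 0.0285 in limma) and at -0.40 with control plasma (adjusted p = 0.0659 in limma). With 10% IH *F5* had -0.21 (adjusted p = 0.47 in limma), which did not meet the criterion. *Plgrkt*, the plasminogen receptor with a C-terminal lysine, was higher with 5% IH (0.34) and with control plasma (0.29). *Pros1*, protein S, was higher (0.31) and *Fgb*, fibrinogen beta, was lower (-0.33) with control plasma. The median ratio of the 41 genes to autologous plasma was -0.02 with 5% IH, 0.03 with 10% IH and -0.01 with control plasma.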

How the data were processed

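RNA of 8 PBMC cultures was measured on Affymetrix rat arrays. The authors quantified the images with Expression Console and made the deposited log2 values by Robust Multichip Analysis over all arrays. The submitters' processing notes also name Partek, with no role. Probe sets were named from the platform annotation, in which 436 of 31042 have several symbols and 9780 none, and these were not used as genes. The Rank Product was computed over all 4 between-array log2 ratios with 100 permutations of values within arrays, 1-sided in a script written for this purpose. limma 3.58.1 in R 4.3.3 fitted 4 groups without a donor term, giving standard errors and 95% intervals. Same-numbered arrays share the cell donor, and their deviations from group means correlated at -0.171 to 0.24. With 2 arrays per group, the number of arrays limits precision. Named genes are all members, pathway genes that met the criterion (the 3 largest ratios each way in each comparison) and the 3 nearest genes of the 3 most variable members, beside cell type markers. Members and lists were chosen with earlier results of these data known. The tests were checked on simulated data. Alternatives included within-donor ratios, a 2-sided p, other scaling, a filter on dim probe sets, the mean of probe sets, a donor block and each array left out.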

Additional observations from a re-analysis of the deposited data

Results flagged for a closer look

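The effects of 5% IH and 10% IH plasma differed by the study's criterion for 2 of the 14 probe sets. *Serpine2* had a 5% IH minus 10% IH difference of 0.35 (3.35 with 5% IH and 3.01 with 10% IH on average), and the dimmest *Thbd* probe set, 1368900_at, had one of -0.29 (2.97 with 5% IH and 3.26 with 10% IH on average, a level at percentile 11.8). limma's adjusted p was 0.981 for each. The 2 brighter *Thbd* probe sets had 0.05 and 0.11 in the same comparison.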

How the results depend on the processing

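No ratio of a gene's brightest probe set that was called by the criterion or by limma changed sign under any alternative run. Ratios that were not called, and those of the other probe sets whether called or not, were not followed through the alternatives. The sign of *Plau* differed between its probe sets for 5% IH against control and for 10% IH against autologous plasma. When probe sets below the 40th percentile were removed, the number of the 9 genes meeting the criterion was 0 for 5% IH against control, 2 for 10% IH against control and 0 for 5% IH against 10% IH, since *Serpine2* and *Plg* were then not tested. Median centring gave 1 for 5% IH against control, and an unadjusted limma p with the fold threshold gave 2 for 10% IH against control. With each array left out, the counts were 2 to 5 for 10% IH against control, 1 to 2 for 5% IH against 10% IH, 2 to 4 for control against autologous, 2 to 3 for 5% IH against control and against autologous, and 3 to 4 for 10% IH against autologous. The replicate block by donor moved no count of calls among the 9 genes, and with Rank Product the genes called were the same: within-donor Rank Product ratios gave 2, 4 and 1 in the IH comparisons and 4, 3 and 4 for control, 5% IH and 10% IH against autologous plasma, and limma with donor gave 0 in the IH comparisons and 2 in each comparison with autologous plasma. limma's counts were also the same with only the arrays compared, under each scaling, without dim probe sets and with each array left out. An intensity trend together with robust moderation gave 3 for 5% IH against autologous and moved no other count. The cause of the changes was otherwise not tested. Signal near background limits what can be said of *Serpine2*, *Plg*, *Serpinb2*, *F3* and *F10*.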
